A study of Homo sapiens with 24 samples.

Results

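The hypoxia and glycolysis genes described here are 40 genes that were picked by name from a table of 34595 rows, most of them named by gene symbol. They comprise 17 targets of the hypoxia-inducible factors that lie outside glycolysis (called HIF-only targets), 12 enzymes of housekeeping glycolysis, 6 inducible glycolytic isoforms and regulators, 3 transporters and 2 HIF alpha subunits. Of the 40, 38 were found under the listed symbol and 2 under an older one (KDM3A as JMJD1A, and HIG2, now HILPDA, as C7ORF68). RNA came from PANC-1 (Panc1) and Capan-1 (Capan1), established human pancreatic cancer cell lines, on 24 one-colour Illumina bead arrays, 2 for each of 12 groups, and the study asked what inhibition of the kinases IRAK1 and IRAK4 does to these cells. In each line, an IRAK1/4 inhibitor was given at 10 uM for 24 h, with the solvent DMSO as its control. Retroviral hairpins gave shIRAK1, shIRAK4, shIRAK1+4 (shIRAK1 cells that took up a second virus carrying shIRAK4) and scramble cells, which were selected with puromycin (1 ug/mL, 48 h) and geneticin (500 ug/mL, 4 days). All groups grew in medium with 10% serum in a standard incubator, and the labels name no low-oxygen step. The series text assigns the hairpins to PANC-1 alone, but arrays labelled with each hairpin exist for both lines, and the Capan1 groups are taken here as labelled. The cells were cultured without stroma, and the hairpin groups are selected populations. Whether a group's 2 arrays stem from different cultures is not given in the labels. All p-values therefore reflect the spread among these particular arrays, which may be technical.

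Cells that lack oxygen keep the HIF alpha subunits HIF1A and EPAS1, which are otherwise hydroxylated by EGLN enzymes and destroyed. The subunits then pair with ARNT, bind short DNA elements and switch on genes for glucose uptake, glycolysis, pH control, blood vessel growth and mitochondrial turnover. Control of the alpha subunits is mainly at the protein level, so their RNA is not a measure of pathway activity. Glycolytic enzymes such as GAPDH and ENO1 are abundant in every proliferating cell, and several of them, LDHA, PGK1 and ALDOA among them, are HIF targets as well. The isoforms HK2, ALDOC, ENO2, PFKFB3 and PFKFB4 respond more steeply to oxygen or hormones in many cell types, and pancreatic tumours are known for poor perfusion and strong glycolysis.

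The DNA core that HIF binds reads ACGTG or GCGTG. Promoter windows from 250 bases before to 50 bases after the gene start (RefSeq, GRCh38.p14) were given for 35 of the 40 members. The core was sought on both strands, so that the palindrome CACGTG counts as 2 overlapping matches. It was present in 26 of the 35 windows (74.3%), against 17012 of 35116 windows of the same length over all genes (48.4%). By role it was found in 10 of 13 HIF-only targets, 8 of 12 housekeeping enzymes and 5 of 6 inducible isoforms and regulators. Windows with at least 2 matches numbered 11 among the members (31.4%), against 23.1% of all windows. A match describes the letters of the window and is not a bound site. The windows of 4 members follow, chosen because they cover a HIF-only target and inducible enzymes on which the inhibitor results turn and a housekeeping enzyme for contrast. Capitals mark the core on either strand.
ANKRD37: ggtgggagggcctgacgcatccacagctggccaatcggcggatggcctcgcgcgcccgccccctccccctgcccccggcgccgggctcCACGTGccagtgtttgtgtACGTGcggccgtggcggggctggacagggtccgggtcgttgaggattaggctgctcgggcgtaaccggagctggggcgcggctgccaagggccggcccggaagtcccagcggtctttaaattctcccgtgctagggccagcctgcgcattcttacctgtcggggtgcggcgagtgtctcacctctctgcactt
ALDOC: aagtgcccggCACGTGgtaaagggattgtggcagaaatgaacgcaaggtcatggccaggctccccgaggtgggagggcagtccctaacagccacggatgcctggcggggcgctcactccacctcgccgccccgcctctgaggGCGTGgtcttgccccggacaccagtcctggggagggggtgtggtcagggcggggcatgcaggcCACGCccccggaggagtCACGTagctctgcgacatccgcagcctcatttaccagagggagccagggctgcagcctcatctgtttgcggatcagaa
PFKFB4: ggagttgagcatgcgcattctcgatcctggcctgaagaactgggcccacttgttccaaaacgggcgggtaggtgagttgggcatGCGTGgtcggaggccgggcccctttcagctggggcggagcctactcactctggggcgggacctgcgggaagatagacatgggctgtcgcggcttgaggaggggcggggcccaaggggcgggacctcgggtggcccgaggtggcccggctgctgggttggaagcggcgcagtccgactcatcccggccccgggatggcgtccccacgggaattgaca
LDHA: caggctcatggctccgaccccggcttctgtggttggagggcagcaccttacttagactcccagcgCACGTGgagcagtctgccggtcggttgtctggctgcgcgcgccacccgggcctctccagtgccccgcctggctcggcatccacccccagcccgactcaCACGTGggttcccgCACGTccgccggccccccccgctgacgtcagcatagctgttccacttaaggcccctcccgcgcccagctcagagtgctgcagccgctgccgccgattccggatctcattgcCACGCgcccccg
ANKRD37 lies at chr4:185396591-185396890 on the plus strand (3 matches), ALDOC at chr17:28576846-28577145 on the minus strand (5 matches), PFKFB4 at chr3:48556754-48557053 on the minus strand (1 match) and LDHA at chr11:18394313-18394612 on the plus strand (6 matches). How the number of matches relates to the inhibitor response was not tested.

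Each array detected 10899 to 13277 rows, and detection began at a level of 5.53 to 5.72. Levels here are log2 intensities after background correction and quantile normalization, and they are compared between samples for 1 gene at a time. Of the members, 33 were detected on all 24 arrays, 5 on some (BNIP3 on 13, CA12 on 12, SLC2A3 on 7, EGLN3 on 5 and CA9 on 4) and 2, MXI1 and PDK1, on none. Epithelial markers were detected on every Capan1 array (9 of 9) and on every Panc1 array for 6 of 9, while in each line 4 of 7 immune markers and 5 of 8 fibroblast markers were detected on no array. PTPRC, CD3E, COL1A2, COL3A1 and DCN were among those absent from both lines. Other immune markers were present throughout a line, 2 of 7 in Capan1 and 1 of 7 in Panc1. The same held for 1 of 8 fibroblast markers in Capan1 and 0 of 8 in Panc1. From the mesenchymal list of 6, each line had 2 present throughout, with 3 in Capan1 and 2 in Panc1 never detected. Endothelial markers were present throughout in neither line, and 3 of 5 in Capan1 and 5 of 5 in Panc1 were never detected. The targeted gene IRAK1 stood at 8.32 and 9.57 in Panc1 shIRAK1 cells and at 8.36 and 8.65 in shIRAK1+4 cells, against 11.30 and 11.53 in scramble cells. In Capan1 it stood at 9.55 and 8.97 in shIRAK1 cells and at 9.10 and 8.60 in shIRAK1+4 cells, against 10.47 and 10.42 in scramble cells. In Capan1 shIRAK4 cells IRAK1 was also below scramble, at 9.64 and 9.56, while in Panc1 shIRAK4 cells it stood at 11.53 and 11.97. IRAK4 was not detected on any shIRAK4, shIRAK1+4 or scramble array, so its knockdown could not be checked.

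In Capan1, the inhibitor raised 15 of 36 tested members and lowered 1, the alpha subunit EPAS1 (limma's moderated test, Benjamini-Hochberg adjusted p under 0.05 over all genes tested). Among all 12079 genes tested, 16.9% were called higher and 15.8% lower, for 32.7% in either direction. All 5 tested inducible isoforms and regulators rose, with a median log2 fold change of 1.81. Of 15 tested HIF-only targets 8 rose, with a median of 1.03 over the 15. Of 12 housekeeping enzymes only ALDOA rose, with a median of 0.29 over the 12, and the median of all genes was 0.006. In bulk RNA, fewer cells of a type and less RNA per cell cannot be told apart, and this holds for every difference given here.

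The HIF-only targets with the largest rises act in stress signalling, vascular tone and mitochondrial turnover. DDIT4, which restrains mTORC1, stood at 11.89 and 11.90 on the Capan1 inhibitor arrays, against 8.72 and 8.79 on the DMSO arrays, a log2 fold change of 3.14 ± 0.43 (SE; adjusted p = 5.80e-05). NDRG1, a stress-induced growth regulator, stood at 11.71 and 11.86 with inhibitor, against 8.77 and 8.77 with DMSO (3.02 ± 0.68, adjusted p = 0.00303). ADM, which encodes the vasodilator peptide adrenomedullin, stood at 9.21 and 9.59 with inhibitor, against 7.36 and 7.35 with DMSO (2.04 ± 0.22, adjusted p = 6.42e-06). For all 3 genes the lowest inhibitor array lay well above the highest DMSO array. ANKRD37, an ankyrin repeat protein, stood at 7.45 and 7.79 with inhibitor, against 5.81 and 5.74 with DMSO (1.84 ± 0.29, adjusted p = 0.000202). BNIP3L, a receptor for the removal of mitochondria, stood at 9.24 and 9.51 with inhibitor, against 7.79 and 7.75 with DMSO (1.60 ± 0.33, adjusted p = 0.00172). P4HA1, a collagen prolyl hydroxylase subunit, stood at 8.90 and 9.25 with inhibitor, against 7.68 and 7.68 with DMSO (1.39 ± 0.47, adjusted p = 0.0325). Here too the groups did not overlap, but P4HA1 lost its call under median scaling (adjusted p = 0.0594). It also lost it on removal of each of the 4 arrays in turn, with fitted values of 1.21 to 1.57.

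The oxygen sensor EGLN3 and the carbonic anhydrase CA9, which exports acid equivalents and is a common marker of hypoxia, crossed the detection limit. EGLN3 stood at 6.10 and 6.86 on the Capan1 inhibitor arrays and was not detected on the DMSO arrays, where it read 5.50 and 5.46. It was at least 1.87-fold higher with inhibitor (fitted log2 fold change 1.00 ± 0.26, adjusted p = 0.00770). Without inhibitor replicate 2 the fitted value was 0.62 and the adjusted p was 0.130, and without DMSO replicate 2 the adjusted p was 0.0503. CA9 stood at 6.45 and 6.54 with inhibitor and was not detected with DMSO, at 5.29 and 5.26. The rise was at least 1.89-fold (fitted 1.22 ± 0.42, adjusted p = 0.0370, and 0.13 with adjusted p = 0.119 when the background came from all rows). With any single array removed the fitted value was 1.18 to 1.27, but the call was lost. The SE pools all 12 groups. For CA9 the SD was 1.58 in Capan1 shIRAK1+4 cells, against 0.07 with inhibitor and 0.02 with DMSO. Both genes were thus seen only with inhibitor and not with DMSO in this pair of groups. A bound is the inhibitor mean over the detection limit of the DMSO arrays. CA12, the other carbonic anhydrase of the set, ran the opposite way in its readings: it was not detected with inhibitor, at 5.35 and 5.48, and was detected with DMSO, at 5.94 and 6.16, and it did not pass the test (-0.64 ± 0.60).

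Other HIF-only targets did not pass the test in Capan1 inhibitor cells. The histone demethylase gene KDM3A gave 1.03 ± 0.39 (adjusted p = 0.0533), with 7.13 and 7.27 with inhibitor against 5.68 and 6.67 with DMSO. The lipid droplet gene HIG2 gave 0.60 (adjusted p = 0.0937), the angiogenic growth factor VEGFA 0.49 (0.0750) and the oxygen sensor EGLN1 0.31 (0.110). The endoplasmic reticulum oxidase ERO1L gave -0.13 and the collagen hydroxylase subunit P4HA2 gave -0.28. BNIP3 was not tested, since it was detected on 1 of 12 Capan1 arrays, and MXI1 was detected on none.

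Among the inducible glycolytic genes, PFKFB4, a bifunctional enzyme that sets the fructose 2,6-bisphosphate level, had the largest rise of all members. It stood at 10.05 and 10.03 on the Capan1 inhibitor arrays, against 6.83 and 6.65 on the DMSO arrays (3.30 ± 0.68, adjusted p = 0.00160). Its relative PFKFB3 stood at 10.28 and 10.34 with inhibitor, against 8.52 and 8.48 with DMSO (1.81 ± 0.19, adjusted p = 3.71e-06). The aldolase isoform ALDOC stood at 11.13 and 11.06 with inhibitor, against 8.85 and 8.74 with DMSO (2.30 ± 0.65, adjusted p = 0.0131). The arrays of these 3 genes fell into well separated pairs. ALDOC lost its call on removal of any single array, with fitted values of 2.24 to 2.35. The enolase isoform ENO2 stood at 7.02 and 7.33 with inhibitor, against 5.67 and 6.08 with DMSO (1.30 ± 0.27, adjusted p = 0.00170), but only 0.16 apart in the fit with the background from all rows (adjusted p = 0.0842). Hexokinase HK2 stood at 8.38 and 8.74 with inhibitor, against 7.80 and 7.69 with DMSO (0.81 ± 0.16, adjusted p = 0.00138). Again no array of one group reached the other.

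**Figure D1:**
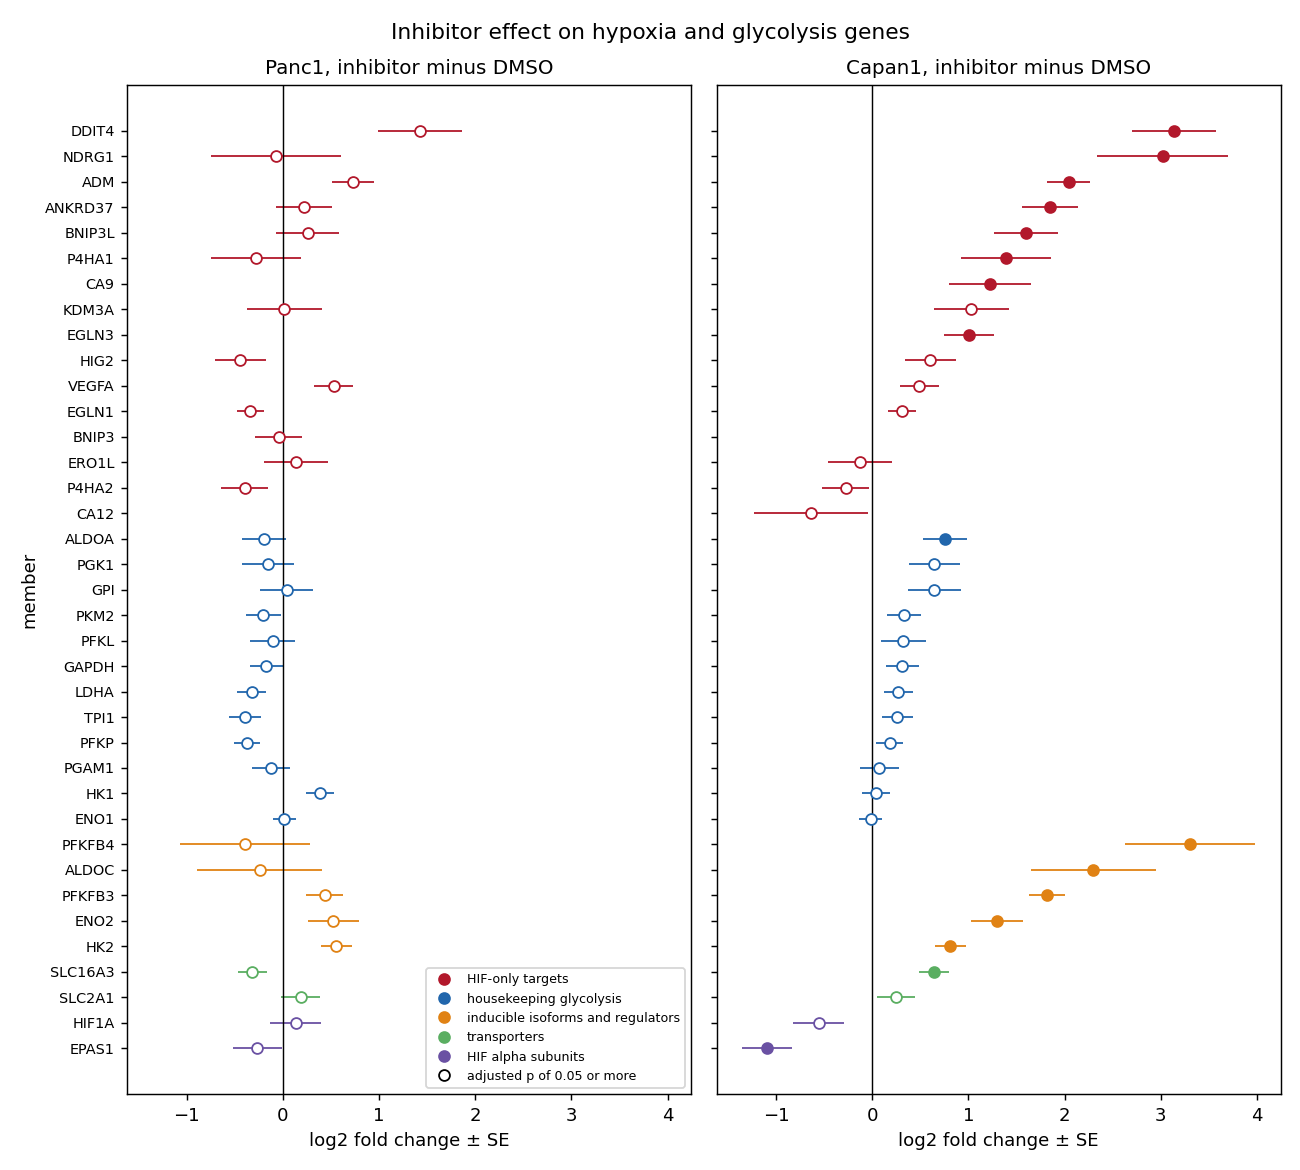
Log2 fold change with SE of each member tested in the inhibitor comparison of Panc1 (left) and Capan1 (right), 2 arrays per group, coloured by role and filled where the adjusted p is under 0.05. In Capan1 all 5 inducible isoforms and regulators and 8 HIF-only targets are filled on the right of 0, with 1 housekeeping enzyme, while in Panc1 no member is filled.

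Housekeeping enzymes moved little. ALDOA stood at 12.14 and 12.05 on the Capan1 inhibitor arrays, against 11.34 and 11.34 on the DMSO arrays (0.76 ± 0.23, adjusted p = 0.0186). Its call was lost on removal of any single array, with fitted values of 0.72 to 0.80. PGK1, the first ATP-yielding enzyme of the chain, gave 0.65 ± 0.27 (adjusted p = 0.0732), and GPI, the isomerase of its upper part, 0.64 (0.0857). GAPDH stood at 12.90 and 12.83 with inhibitor, against 12.58 and 12.53 with DMSO (0.31 ± 0.17, adjusted p = 0.181). LDHA gave 0.27 (adjusted p = 0.186) and ENO1 -0.02. The inhibitor arrays of 10 of the 12 enzymes were nevertheless both above the DMSO arrays. Over all 36 members tested this held for 29, with 5 both below, where 38.1% of all genes were both above and 36.7% both below.

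Of the transporters, the lactate exporter SLC16A3 rose by 0.64 ± 0.16 on the log2 scale in Capan1 inhibitor cells (adjusted p = 0.00504). The glucose transporter SLC2A1 gave 0.25, from a high level on every Capan1 array, and SLC2A3 was below the detection limit on 3 of the 4 arrays and was not tested. The alpha subunits were lower in value. EPAS1 stood at 6.93 and 6.98 with inhibitor, against 8.06 and 8.04 with DMSO (-1.09 ± 0.26, adjusted p = 0.00397). HIF1A stood at 6.85 and 7.14 with inhibitor, against 7.47 and 7.64 with DMSO, and did not pass the test (-0.56 ± 0.27, adjusted p = 0.120). Under median scaling, which moved the median of all genes by 0.36, EPAS1 gave -0.66 and lost its call (adjusted p = 0.216), as it did with the background from all rows (-0.25, adjusted p = 0.104). Under median scaling 15 members were higher and 0 lower, but these counts include the shift of all genes and are not read as a result about the members. Relative to that shift the medians were 1.05 for HIF-only targets, 1.83 for inducible genes and 0.37 for housekeeping enzymes. The Capan1 inhibitor arrays carry the array numbers 16605 and 16606, whereas the other 22 arrays run from 16579 to 16602. What these numbers stand for is not stated, and number and treatment cannot be told apart for this group. Of the other cell type markers, 1 of 2 tested fibroblast markers was higher and 1 of 2 tested immune markers lower on these arrays, and 3 of 9 epithelial markers were lower. The 1 tested endothelial marker was higher, and of 3 mesenchymal markers 1 was higher and 1 lower. Their part in the members' changes was not tested.

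In Panc1 the same treatment moved no member past the threshold (0 of 34 tested by limma), where 3.66% of all genes were called higher and 2.98% lower (6.65% in either direction). At an unadjusted p under 0.05 there were 9 members, against 2444 of 11525 genes. With the spread taken from the compared groups alone, or with a weight per group, limma called 13, 7 higher and 6 lower. Over all genes these settings called 2311 and 2675 of 11525. The closest to the threshold were HK2, DDIT4 and ADM. HK2 stood at 6.86 and 7.02 with inhibitor, against 6.43 and 6.33 with DMSO (0.56 ± 0.16, adjusted p = 0.0521). DDIT4 stood at 10.33 and 10.49 with inhibitor, against 8.89 and 9.07 with DMSO (1.43 ± 0.43, adjusted p = 0.0590). ADM stood at 11.82 and 11.57 with inhibitor, against 10.99 and 10.94 with DMSO (0.73 ± 0.22, adjusted p = 0.0595). In each of the 3 the groups did not overlap.

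Other Panc1 members were near 0 or below it with inhibitor. NDRG1 stood at 6.27 and 6.58 with inhibitor, against 6.49 and 6.50 with DMSO, so that the groups overlapped. PFKFB4 stood at 6.27 and 6.12 with inhibitor, against 6.68 and 6.49 with DMSO (-0.39 ± 0.68). TPI1, PFKP and LDHA gave -0.39, -0.37 and -0.32, and GAPDH stood at 12.54 and 12.60 with inhibitor, against 12.73 and 12.75 with DMSO. The median over the 12 housekeeping enzymes was -0.16, with both inhibitor arrays below both DMSO arrays in 8. The HIF-only median was 0.02 over 13 tested and the inducible median 0.43 over 5. Among all 34 members 11 had both inhibitor arrays above and 16 below, where 30% and 30.6% of all genes did. HIF1A stood at 6.27 and 6.35 with inhibitor, against 6.28 and 6.07 with DMSO, and EPAS1 at 9.51 and 9.48, against 9.84 and 9.68. CA9 and EGLN3 were detected on none of these 4 arrays, with readings of 5.24 and 5.28 for CA9 and 5.33 and 5.31 for EGLN3 with inhibitor, against 5.31 and 5.31 and against 5.37 and 5.25 with DMSO.

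The difference of the inhibitor effects, Panc1 minus Capan1, was tested as an interaction in the same fit. Of 37 members tested 7 had a negative difference past the threshold and 0 a positive one, where 8.31% of all genes were called negative and 16.3% in either direction. PFKFB4 differed by -3.69 ± 0.96 (adjusted p = 0.0158), NDRG1 by -3.09 ± 0.96 (0.0379), ANKRD37 by -1.62 ± 0.41 (0.0145) and PFKFB3 by -1.38 ± 0.27 (0.00268). ADM differed by -1.31 ± 0.31 (adjusted p = 0.0102), SLC16A3 by -0.96 ± 0.22 (0.00789) and EGLN1 by -0.65 ± 0.20 (0.0393). EGLN1 passed in neither line alone, with 6.80 and 6.46 with inhibitor against 7.07 and 6.87 with DMSO in Panc1, and 7.48 and 7.73 against 7.39 and 7.20 in Capan1. For DDIT4, higher in value with inhibitor in both lines, the difference did not pass (-1.71 ± 0.61, adjusted p = 0.0686). Under median scaling none of the 7 kept its call (adjusted p = 0.0865 to 0.295), and each removal of a single array also cost calls. PFKFB3 and SLC16A3 passed with each of the 8 arrays removed in turn, ADM with 6 of 8, PFKFB4 and ANKRD37 with 4, EGLN1 with 2 and NDRG1 with none. The Capan1 inhibitor arrays with their own array numbers enter each of these differences, so a departure of those arrays and a difference between the lines cannot be told apart.

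**Figure D2:**
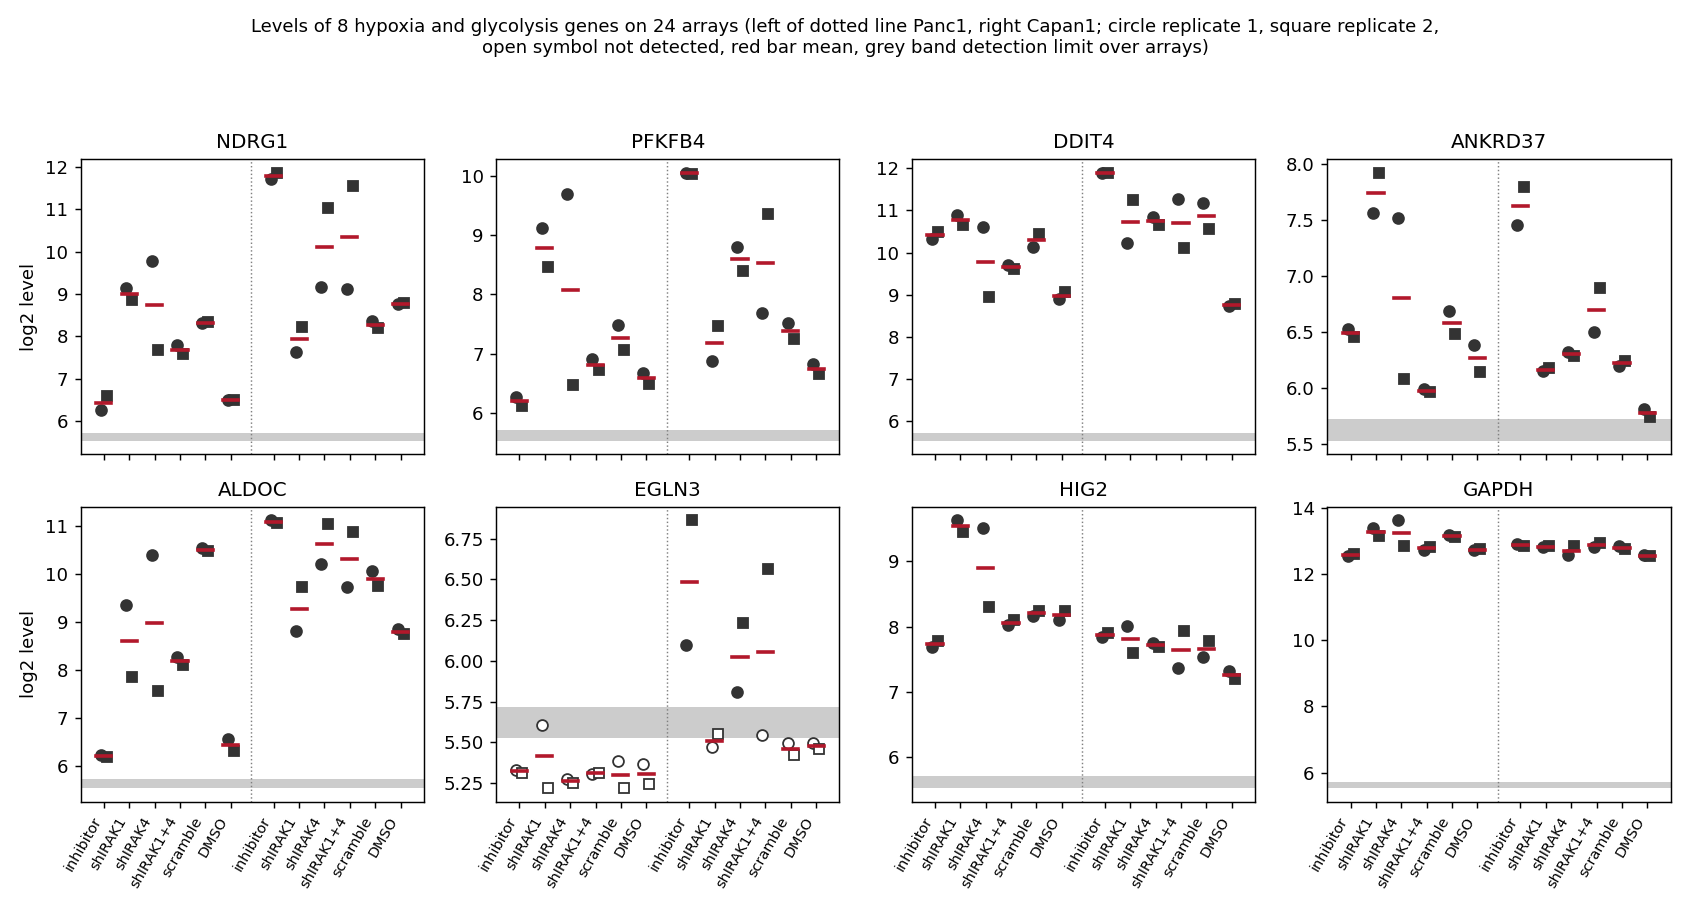
Log2 level of 8 members on all 24 arrays, with Panc1 left and Capan1 right of the dotted line, circles for replicate 1, squares for replicate 2, a bar for the mean and a grey band for the detection limit. PFKFB4 stands near 10.0 on both Capan1 inhibitor arrays, and the 2 arrays of the Panc1 shIRAK4 group lie far apart for NDRG1, PFKFB4, DDIT4, ANKRD37, ALDOC and HIG2.

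Among the Panc1 hairpin groups, shIRAK1 raised 6 of 35 tested members over scramble and lowered none, where 5.7% of all genes were called higher and 5.17% lower. The 6 were the HIF-only targets HIG2 and ANKRD37, the inducible HK2 and ENO2, and the transporters SLC2A1 and SLC16A3. HIG2, which protects lipid droplets, stood at 9.63 and 9.46 in shIRAK1 cells, against 8.17 and 8.24 in scramble cells (1.34 ± 0.27, adjusted p = 0.00435). ANKRD37 stood at 7.56 and 7.92 in shIRAK1 cells, against 6.68 and 6.48 in scramble cells (1.16 ± 0.29, adjusted p = 0.0181). SLC2A1, the main glucose importer, stood at 10.15 and 10.32 in shIRAK1 cells, against 9.25 and 9.21 in scramble cells (1.01 ± 0.20, adjusted p = 0.00444). The arrays of the 2 groups lay clear of each other in all 3. ENO2 stood at 7.94 and 8.02 in shIRAK1 cells, against 6.91 and 7.19 in scramble cells (0.94 ± 0.27, adjusted p = 0.0345). HK2 stood at 6.92 and 7.52 in shIRAK1 cells, against 6.45 and 6.61 in scramble cells (0.69 ± 0.16, adjusted p = 0.0131). SLC16A3 stood at 13.16 and 12.96 in shIRAK1 cells, against 12.59 and 12.37 in scramble cells (0.58 ± 0.16, adjusted p = 0.0244). HK2 had the widest gap between its shIRAK1 arrays among the 6.

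The other Panc1 shIRAK1 values did not pass. The HIF-only median was 0.49 over 14 tested, the inducible median 0.69 over 5 and the housekeeping median 0.08 over 12. PFKFB4 stood at 9.11 and 8.46 in shIRAK1 cells, against 7.48 and 7.05 in scramble cells (1.52 ± 0.68, adjusted p = 0.168). ALDOC went the other way in value, at 9.35 and 7.84 in shIRAK1 cells, against 10.54 and 10.47 in scramble cells. Both shIRAK1 arrays lay above both scramble arrays for 20 members and below them for 5, where 28.5% and 28.3% of all genes did. GAPDH stood at 13.39 and 13.16 in shIRAK1 cells, against 13.19 and 13.13 in scramble cells, and the groups overlapped. Under median scaling, which moved the median of all genes by 0.24, none of the 6 kept its call (adjusted p = 0.0613 to 0.263). The same held with the spread of the Panc1 hairpin arm alone (0.0527 to 0.119). With single arrays removed in turn, HIG2 and SLC2A1 passed in 4 of 4 cases, HK2 in 2, ANKRD37 and SLC16A3 in 1 and ENO2 in 0.

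In Panc1 shIRAK4 cells no member of 34 tested passed (limma), where 7.23% of all genes were called higher and 6.45% lower (13.7% in either direction). At an unadjusted p under 0.05 there were 6 members, against 3266 of 11305 genes. The 2 arrays of this group differed from each other in these genes. Of the 34 detected members 33 were lower on replicate 2, by a median of 1.20 for the 13 HIF-only targets, 1.00 for the 5 inducible genes and 0.52 for the 12 housekeeping enzymes. Over all genes detected in this group the median absolute difference between the arrays was 0.21, and 1.99% differed by more than 1, against 26.5% of the members (9 of 34). PFKFB4 stood at 9.69 on replicate 1 and 6.47 on replicate 2, with 7.48 and 7.05 in scramble cells. ALDOC stood at 10.39 and 7.57, with 10.54 and 10.47 in scramble cells. P4HA1 stood at 8.93 and 6.63, with 7.89 and 8.13 in scramble cells. In PFKFB4 and P4HA1 the scramble arrays lay between the shIRAK4 arrays. NDRG1 stood at 9.78 and 7.67, with 8.31 and 8.33 in scramble cells. BNIP3 stood at 11.67 and 10.47, with 11.64 and 11.90 in scramble cells. GAPDH stood at 13.63 and 12.84, with 13.19 and 13.13 in scramble cells. The glucose transporter SLC2A3 was detected at 7.45 on replicate 1 and not detected on replicate 2, at 5.33.

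Both shIRAK4 arrays lay above both scramble arrays in 5 members and below in 3, where 28.3% and 27.1% of all genes did. The direction of the Panc1 shIRAK4 comparison thus rested on which array was kept. With replicate 1 alone, PFKFB4 was higher than scramble by 2.42, HIG2 by 1.31, ENO2 by 1.28 and P4HA2 by 0.98. So were SLC2A1 and ANKRD37 by 0.94, VEGFA by 0.61 and GAPDH by 0.47, and SLC2A3, not detected in scramble cells. With replicate 2 alone, the log2 fold change was -2.94 for ALDOC, -1.39 for P4HA1, -1.35 for DDIT4, -1.30 for BNIP3 and -0.45 for LDHA. The genes named are those that the fit without the other array picked out. Others, such as NDRG1, also lay above scramble on replicate 1 and below it on replicate 2. A single array gives no spread of its own, so the values are not treated as calls.

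**Figure D3:**
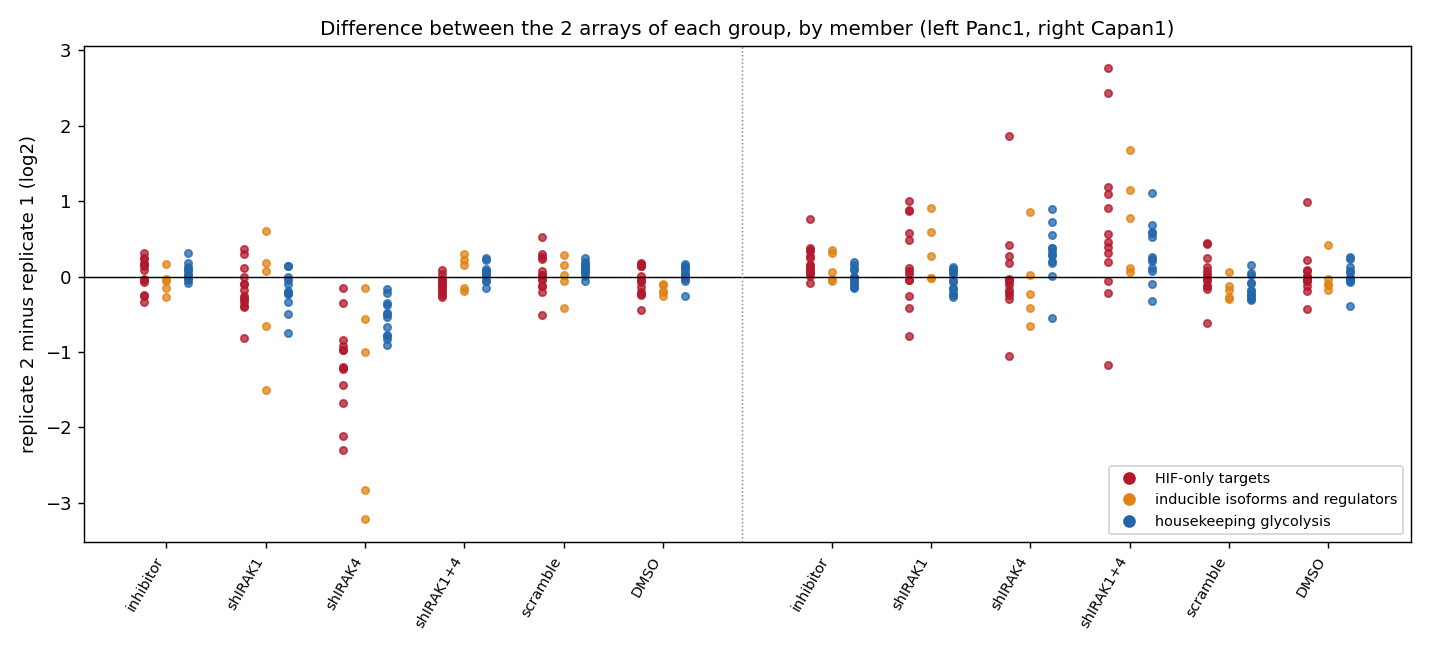
Log2 difference between the 2 arrays of each group (replicate 2 minus replicate 1) for the HIF-only, inducible and housekeeping members detected on both arrays of the group, with Panc1 left and Capan1 right. In Panc1 shIRAK4 all 13 HIF-only, 5 inducible and 12 housekeeping members lie below 0, and in Capan1 shIRAK1+4 most lie above it.

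In Panc1 shIRAK1+4 cells 3 of 34 tested members fell below scramble and none rose, where 6.53% of all genes were called lower and 8.15% higher. BNIP3, a mitochondrial receptor related to BNIP3L, stood at 10.40 and 10.36 in shIRAK1+4 cells, against 11.64 and 11.90 in scramble cells (-1.39 ± 0.24, adjusted p = 0.00131). ALDOC stood at 8.26 and 8.10 in shIRAK1+4 cells, against 10.54 and 10.47 in scramble cells (-2.32 ± 0.65, adjusted p = 0.0245). EGLN1 stood at 6.64 and 6.49 in shIRAK1+4 cells, against 7.09 and 7.04 in scramble cells (-0.51 ± 0.14, adjusted p = 0.0252). None of the 3 overlapped. The median was -0.51 for HIF-only targets, -0.45 for inducible genes and -0.28 for housekeeping enzymes, with both shIRAK1+4 arrays below both scramble arrays in 19 of 34 members and above in 5, where 31.2% and 36% of all genes were. GAPDH was among the 19, at 12.73 and 12.82 in shIRAK1+4 cells against 13.19 and 13.13 in scramble cells. With each of the 4 arrays removed in turn, BNIP3 kept its call and ALDOC and EGLN1 lost theirs. Epithelial markers were higher in the same comparison (5 of 8 tested, median 0.75), as was 1 of 2 tested fibroblast markers, and epithelial markers were also higher in shIRAK1 cells (2 of 7) and shIRAK4 cells (3 of 7). Their part in the members' changes was not tested. With the spread of the compared groups alone 17 members were called, 1 higher and 16 lower. Over all genes 1733 of 11522 were called higher in that setting and 1628 lower.

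In Capan1 the hairpins moved few members. In shIRAK1 cells 0 of 34 tested passed (limma, with 0.86% of all genes called higher and 0.767% lower, 1.63% in either direction). At an unadjusted p under 0.05 there were 3 members, against 1444 of 11858 genes. All other settings gave 0 for this comparison. Both shIRAK1 arrays lay above both scramble arrays in 5 members and below in 9, where 21.1% and 20.8% of all genes did. In shIRAK4 cells 2 of 36 rose and 2 fell, where 4.45% of all genes were called higher and 3.91% lower. ADM stood at 8.51 and 8.27 in shIRAK4 cells, against 7.16 and 7.61 in scramble cells (1.01 ± 0.22, adjusted p = 0.00952). P4HA2 stood at 7.13 and 7.40 in shIRAK4 cells, against 6.43 and 6.30 in scramble cells (0.90 ± 0.25, adjusted p = 0.0324). Those 2 rose clear of the scramble arrays, and HK2 and SLC16A3 fell. HK2 stood at 8.12 and 7.90 in shIRAK4 cells, against 8.55 and 8.61 in scramble cells (-0.57 ± 0.16, adjusted p = 0.0399). SLC16A3 stood at 10.43 and 10.31 in shIRAK4 cells, against 11.02 and 10.98 in scramble cells (-0.63 ± 0.16, adjusted p = 0.0195). Under median scaling, and with the spread of the hairpin arm alone, none of the 4 kept its call. Both shIRAK4 arrays lay above both scramble arrays in 15 members and below in 6, where 22.3% and 29% of all genes did. With single arrays removed in turn, ADM passed in 2 of 4 cases and the other 3 genes in 1 each.

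In Capan1 shIRAK1+4 cells 1 of 34 tested members rose, where 2.37% of all genes were called higher and 3.36% lower: P4HA2, at 7.20 and 7.40 in shIRAK1+4 cells, against 6.43 and 6.30 in scramble cells (0.94 ± 0.25, adjusted p = 0.0346). This was another group whose arrays differed in these genes, with 27 of 34 members higher on replicate 2 and a median absolute difference of 0.46, against 0.25 over all detected genes. NDRG1 stood at 9.12 on replicate 1 and 11.55 on replicate 2, with 8.35 and 8.18 in scramble cells. CA9 was not detected on replicate 1, at 5.22, and stood at 7.45 on replicate 2, its highest level on any array, with no detection in scramble cells. CA12 stood at 5.81 and 8.57, with 5.74 and 5.70 in scramble cells. On replicate 1 these genes lay near scramble, apart from NDRG1. EGLN3 was not detected on replicate 1, at 5.55, and stood at 6.56 on replicate 2. EPAS1 stood at 7.14 and 8.38, with 7.31 and 7.41 in scramble cells, and HIF1A at 7.91 and 7.46, with 7.59 and 7.67. Without replicate 1, the log2 fold change over scramble was 3.29 for NDRG1, 2.85 for CA12, 2.13 for CA9 and 1.28 for ERO1L. It was 1.10 for EGLN3, 1.04 for P4HA2 and 1.01 for EPAS1. These genes were picked out by that fit. It rests on 1 array of the group, which gives no spread of its own, so the values are not treated as calls. P4HA2 passed in 1 of 4 removals of single arrays. Both shIRAK1+4 arrays lay above both scramble arrays in 11 members and below in 2, where 20.8% and 24.1% of all genes did.

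Capan1 shIRAK4 cells showed a similar spread in some of the same genes, with NDRG1 at 9.17 and 11.04, CA9 not detected on replicate 1, at 5.57, and at 6.33 on replicate 2, and EGLN3 at 5.81 and 6.23. In Capan1 shIRAK1 cells CA9 (5.29 and 5.33) and EGLN3 (5.47 and 5.55) were not detected. HIF1A stood at 8.03 and 8.30 in shIRAK1 cells and at 8.51 and 7.22 in shIRAK4 cells, against 7.59 and 7.67 in scramble cells. EPAS1 stood at 7.94 and 7.65 in shIRAK1 cells and at 7.81 and 8.14 in shIRAK4 cells, against 7.31 and 7.41 in scramble cells. Neither alpha subunit passed the test in a hairpin comparison of either line. From replicate 1 alone HIF1A was 0.88 above scramble in Capan1 shIRAK4 cells. From replicate 2 alone EPAS1 was 1.01 above scramble in Capan1 shIRAK1+4 cells. GAPDH stood at 12.80 and 12.83 in shIRAK1 cells, 12.57 and 12.85 in shIRAK4 cells and 12.82 and 12.94 in shIRAK1+4 cells, against 12.84 and 12.75 in scramble cells.

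In the Panc1 hairpin cells HIF1A stood at 5.97 and 6.05 (shIRAK1), 5.77 and 5.81 (shIRAK4) and 5.81 and 5.85 (shIRAK1+4), against 5.76 and 5.70 in scramble cells, all close to the detection limit. EPAS1 stood at 8.85 and 9.09, 9.21 and 9.03, and 9.06 and 8.96 in the same order, against 9.13 and 9.34 in scramble cells. CA9 and EGLN3 were detected on no Panc1 array, with readings of 5.24 to 5.54 for CA9 and 5.22 to 5.61 for EGLN3.

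**Figure D4:**
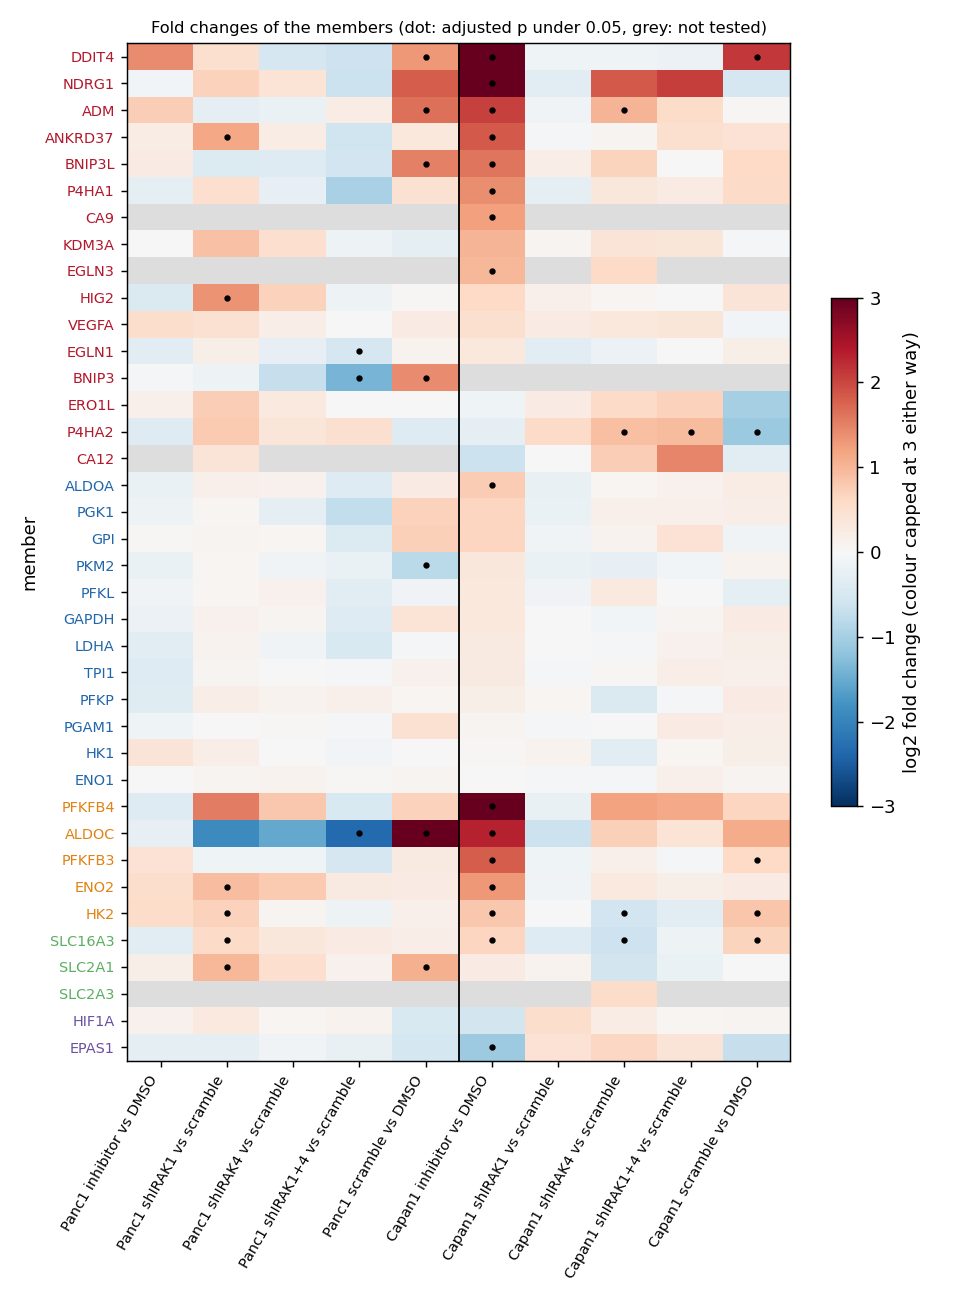
Log2 fold change of every member tested in at least 1 of 10 comparisons (colour capped at 3 either way, dots for an adjusted p under 0.05, grey where a member was not tested), with Panc1 left and Capan1 right of the vertical line. The Capan1 inhibitor column holds 16 dots and the Panc1 inhibitor column none.

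Scramble cells differ from DMSO cells in virus, selection and time in culture, which cannot be told apart, so this pair shows how far the members moved between control groups. In Panc1 6 of 34 tested members were higher in scramble cells and 1 was lower, where 12.8% of all genes were called higher and 14% lower. ALDOC stood at 10.54 and 10.47 in scramble cells, against 6.56 and 6.31 in DMSO cells (4.07 ± 0.65, adjusted p = 0.000368). ADM stood at 12.60 and 12.62 in scramble cells, against 10.99 and 10.94 in DMSO cells (1.65 ± 0.22, adjusted p = 9.11e-05). BNIP3 stood at 11.64 and 11.90 in scramble cells, against 10.39 and 10.32 in DMSO cells (1.42 ± 0.24, adjusted p = 0.000655). None of the 3 overlapped, and ALDOC was the member with the largest change in any within-line comparison. BNIP3L rose by 1.50 ± 0.33 (adjusted p = 0.00363), DDIT4 by 1.31 ± 0.43 (0.0341) and SLC2A1 by 1.06 ± 0.20 (0.00130). DDIT4 alone among the 7 lost its call on removal of single arrays. The pyruvate kinase gene PKM2 stood at 9.18 and 9.29 in scramble cells, against 9.96 and 10.12 in DMSO cells (-0.81 ± 0.18, adjusted p = 0.00392). Both scramble arrays lay above both DMSO arrays in 22 members and below in 5, where 35.5% and 37.5% of all genes did. GAPDH was among the 22 at 13.19 and 13.13, against 12.73 and 12.75.

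The scramble arrays also serve as the control of the hairpin groups, so the ALDOC and BNIP3 values below scramble and above DMSO share those arrays. In Panc1, ALDOC ran from 7.57 to 10.39 on the 6 hairpin arrays, between the scramble and DMSO levels given above. BNIP3 in shIRAK1+4 cells was at the level of DMSO cells. HIF1A stood at 5.76 and 5.70 in Panc1 scramble cells, against 6.28 and 6.07 in DMSO cells, and EPAS1 at 9.13 and 9.34, against 9.84 and 9.68, with neither past the threshold.

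In Capan1 4 of 34 tested members were higher in scramble than in DMSO cells and 1 was lower, where 7.99% of all genes were called higher and 7.63% lower. DDIT4 stood at 11.18 and 10.57 in scramble cells, against 8.72 and 8.79 in DMSO cells (2.12 ± 0.43, adjusted p = 0.00335). HK2 stood at 8.55 and 8.61 in scramble cells, against 7.80 and 7.69 in DMSO cells (0.84 ± 0.16, adjusted p = 0.00243). SLC16A3 stood at 11.02 and 10.98 in scramble cells, against 10.36 and 10.30 in DMSO cells (0.67 ± 0.16, adjusted p = 0.00758). These groups did not overlap. PFKFB3 stood at 9.19 and 9.01 in scramble cells, against 8.52 and 8.48 in DMSO cells (0.60 ± 0.19, adjusted p = 0.0396). P4HA2 stood at 6.43 and 6.30 in scramble cells, against 7.49 and 7.44 in DMSO cells (-1.10 ± 0.25, adjusted p = 0.00593), so that its rise over scramble in shIRAK4 and shIRAK1+4 cells brought it close to the DMSO level. With single arrays removed in turn, HK2 passed in 4 of 4 cases, DDIT4 in 3, SLC16A3 and P4HA2 in 2 and PFKFB3 in 0. Under median scaling, which moved the median of all genes by 0.58, 11 members were higher and 0 lower. Over all genes 4052 of 12136 were called higher in that setting and 168 lower. Both scramble arrays lay above both DMSO arrays in 19 members and below in 6, where 33.5% and 32.6% of all genes did. HIF1A stood at 7.59 and 7.67 in scramble cells, against 7.47 and 7.64 in DMSO cells, and EPAS1 at 7.31 and 7.41, against 8.06 and 8.04. GAPDH stood at 12.84 and 12.75, against 12.58 and 12.53, and CA9 and EGLN3 were not detected in either group.

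Under DMSO the lines differed in most members: 13 of 35 tested were higher in Panc1 and 10 lower, where 30.7% of all genes were called higher and 27% lower (57.7% in either direction). BNIP3 stood at 10.39 and 10.32 in Panc1 and was not detected in Capan1, at 5.52 and 5.52, so that it was at least 27.3-fold higher in Panc1 (adjusted p = 8.87e-11). ADM stood at 10.99 and 10.94 in Panc1, against 7.36 and 7.35 in Capan1 (3.61 ± 0.22, adjusted p = 1.07e-09). SLC16A3 stood at 12.28 and 12.28 in Panc1, against 10.36 and 10.30 in Capan1 (1.95 ± 0.16, adjusted p = 2.49e-08). Those 3 were the most elevated members of Panc1. On the other side, SLC2A1 stood at 8.09 and 8.25 in Panc1, against 11.37 and 11.36 in Capan1 (-3.20 ± 0.20, adjusted p = 1.41e-09). ERO1L stood at 7.45 and 7.62 in Panc1, against 9.82 and 9.90 in Capan1 (-2.33 ± 0.33, adjusted p = 1.77e-05). NDRG1 stood at 6.49 and 6.50 in Panc1, against 8.77 and 8.77 in Capan1 (-2.27 ± 0.68, adjusted p = 0.00896). The glucose importer and the lactate exporter thus differed in opposite directions between the lines.

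Both Panc1 arrays lay above both Capan1 arrays in 17 members and below in 14, where 44.3% and 40.7% of all genes did. The alpha subunits also split by line under DMSO. EPAS1 stood at 9.84 and 9.68 in Panc1, against 8.06 and 8.04 in Capan1 (1.71 ± 0.26, adjusted p = 2.78e-05). HIF1A stood at 6.28 and 6.07 in Panc1, against 7.47 and 7.64 in Capan1 (-1.38 ± 0.27, adjusted p = 0.000348). Neither pair of groups overlapped. ALDOC was lower in Panc1, at 6.56 and 6.31, against 8.85 and 8.74 in Capan1 (-2.36 ± 0.65, adjusted p = 0.00539). BNIP3L stood at 6.37 and 6.23 in Panc1, against 7.79 and 7.75 in Capan1 (-1.47 ± 0.33, adjusted p = 0.00126). PGAM1 stood at 11.14 and 11.20 in Panc1, against 9.78 and 9.74 in Capan1 (1.41 ± 0.20, adjusted p = 1.67e-05), and the row of its near-identical relative PGAM4 gave 1.38, so the 2 cannot be told apart. HK2, PFKFB3, PFKL and HK1 were lower in Panc1 by log2 values of -1.36, -0.48, -0.73 and -0.36. PFKP, P4HA2, ENO2, HIG2, PGK1, ENO1, TPI1 and LDHA were higher by 1.16, 1.11, 0.92, 0.92, 0.91, 0.74, 0.43 and 0.39. GAPDH stood at 12.73 and 12.75 in Panc1, against 12.58 and 12.53 in Capan1, and did not pass, and CA9 and EGLN3 were not detected in either line under DMSO. By role, 6 of the 12 housekeeping enzymes were higher in Panc1 and 2 lower, and 1 of 5 inducible genes was higher and 3 lower. With the background from all rows, NDRG1, BNIP3L, ALDOC and HIF1A were among the genes that lost their calls. They gave -0.65, -0.24, -0.68 and -0.20 there (adjusted p = 0.534, 0.226, 0.413 and 0.0613). Under median scaling ENO1 was among those that lost theirs (adjusted p = 0.0789). LDHA, PFKFB3, TPI1, PFKL, HK1, HIG2, ENO2 and PGK1 lost their calls on removal of at least 1 array, and the other 15 passed each time.

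HIF-only targets and housekeeping glycolysis were then set side by side on each array. Each gene's level was taken relative to its mean over the arrays of its line, and the median over the 16 detectable HIF-only targets was compared with that over the 12 enzymes. On the Capan1 inhibitor arrays the HIF-only median was 0.45 and 0.79 and the housekeeping median 0.12 and 0.14. On the Capan1 DMSO arrays the HIF-only median was -0.41 and -0.43 and the housekeeping median -0.16 and -0.15. HIF-only minus housekeeping was therefore 0.49 ± 0.23 with inhibitor and -0.27 ± 0.02 with DMSO (SD, n = 2 each), a gap of 0.76 where the pooled SD between replicates was 0.17. In Panc1 it was 0.13 ± 0.14 with inhibitor and -0.16 ± 0.02 with DMSO, a gap of 0.29. These values carry no test, because the members were chosen with results of these data known. The Capan1 gap turned to -0.15 when the background was inferred from all rows, several-probe rows included, and was 0.99 in the normalized table that the authors deposited.

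The hairpin groups showed smaller gaps on this scale. In Panc1, HIF-only minus housekeeping was 0.30 ± 0.06 in shIRAK1 cells, 0.04 ± 0.29 in shIRAK4 cells and -0.02 ± 0.15 in shIRAK1+4 cells, against -0.06 ± 0.13 in scramble cells (SD, n = 2 each). The shIRAK1 gap to scramble was 0.35, and the others were 0.09 and 0.04, within the replicate spread. With the background from all rows the shIRAK1 gap was -0.0013, and without replicate 1 the shIRAK4 gap was -0.12. In Capan1 it was -0.21 ± 0.16 in shIRAK1 cells, 0.11 ± 0.16 in shIRAK4 cells and -0.09 ± 0.25 in shIRAK1+4 cells, against -0.29 ± 0.12 in scramble cells. There the shIRAK4 gap was 0.40, and the others were 0.08 and 0.20. With the background from all rows the shIRAK4 gap was 0.16 and the shIRAK1+4 gap -0.040. On the 2 Panc1 shIRAK4 arrays both roles moved together, with the HIF-only median at 0.64 and -0.27 and the housekeeping median at 0.40 and -0.10.

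**Figure D5:**
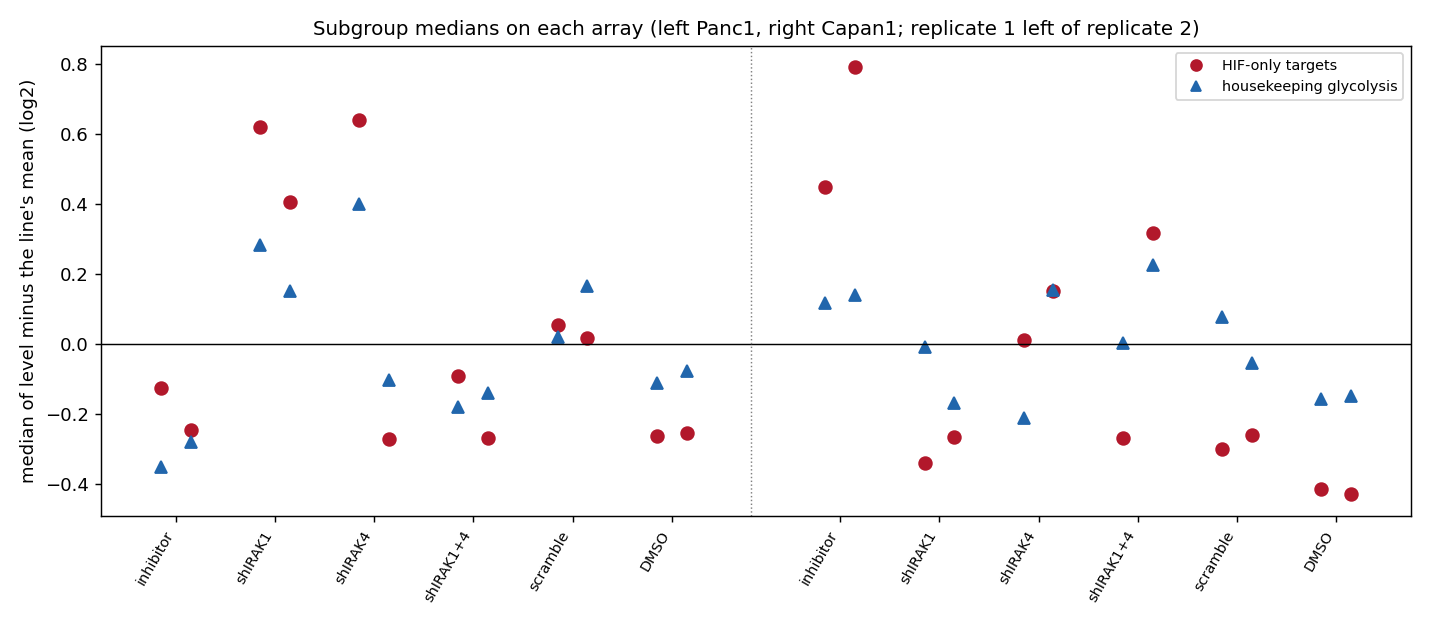
Median level relative to the mean of the line on each array for HIF-only targets (circles) and housekeeping glycolysis (triangles), replicate 1 left of replicate 2, Panc1 left and Capan1 right of the dotted line. The HIF-only circles stand above the triangles on both Capan1 inhibitor arrays and below them on both Capan1 DMSO arrays, and both symbols drop together on replicate 2 of Panc1 shIRAK4.

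Other genes of the same pathways were counted in 2 further lists. Of 35 other HIF pathway genes, 23 were tested in the Capan1 inhibitor comparison, 6 rose and 1 fell, with a median of 0.41, where 16.9% of all genes were called higher and 15.8% lower. The glycogen regulator PPP1R3C rose by 1.61, the collagen lysyl hydroxylase PLOD2 by 1.32 and the lipase inhibitor ANGPTL4 by 1.21, while the prolyl hydroxylase EGLN2 fell by 0.39. Of 24 other glycolysis genes, 11 were tested, with the same shares over all genes. Of these, phosphoglucomutase PGM1 rose by 0.53, HKDC1 fell by 1.43, PGM2 fell by 1.07 and TIGAR fell by 1.00. In Panc1 with inhibitor, 1 of 25 other HIF pathway genes rose, the secreted glycoprotein STC2, by 1.26, and of 10 other glycolysis genes only PGM2 passed, which fell by 0.65, where 6.65% of all genes were called in either direction. In the Panc1 hairpin cells 5 of 24, 5 of 25 and 5 of 25 other HIF pathway genes were called in either direction, where 10.9%, 13.7% and 14.7% of all genes were. STC2 rose over scramble, with log2 fold changes of 1.19, 0.88 and 1.09 in shIRAK1, shIRAK4 and shIRAK1+4 cells, and so did ZNF395, with 1.10, 0.93 and 0.71. The transcriptional repressor BHLHE40 fell, with -1.04, -0.87 and -0.71. These 3 comparisons share the scramble arrays.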

How the data were processed

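Biotin-labelled cRNA from 24 cell samples was read on Illumina bead arrays. GenomeStudio 2011 is named in the submitters' processing notes. The authors deposited a table that, per the file headers, is not normalized and holds a log2 signal and a detection p-value per gene and array, and a second table of normalized log2 values whose method is not given in the sources used here. It was taken to be quantile normalized from its near-equal quartiles and served as an alternative. The design foresaw probe-level intensities; since the table is gene-level, the log2 signals were returned to the linear scale. Background was corrected by normexp (background mean and SD inferred from the detection p-values of 27191 rows with 1 probe, offset 16), followed by quantile normalization over the 24 arrays and log2.

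Rows with 1 probe counted as detected at a detection p under 0.01. The 7404 rows with several probes, among them 11 members, counted as detected when their signal reached the lowest detected signal of that array, because 39.7% of their values over a log2 signal of 8 were not detected by p, against 0 of 97593 such values of 1-probe rows. To be tested, a gene had to be detected on 2 of 2 arrays in 1 or more of the groups compared. Limma 3.58.1 (R 4.3.3) fitted 12 group means in 1 model, with its moderated test and Benjamini-Hochberg adjustment per comparison at 0.05. With 2 arrays per group, 12 residual degrees of freedom limit the precision. The spread is shared, so arrays that differ within 1 group widen the SE of that gene in every comparison. Fold changes understate the change of genes near the detection limit. The script was checked on simulated data.

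The members, their roles, the 2 further lists (35 other HIF pathway genes and 24 other glycolysis genes) and the marker lists were chosen with earlier results of these data known. Every member past the threshold was named, with values per array for at most the 10 largest per comparison and for HIF1A, EPAS1, CA9, EGLN3 and GAPDH in any case. Other values per array were chosen after they were seen. Of the further lists, at most the 3 largest changes per direction were to be named, and 1 gene is not reported here. Alternatives were the background, the deposited normalized table, median scaling, no detection filter, a replicate block, weights per group, other estimates of the spread and removal of single arrays. A detection p for every row and the tests of the hairpin effects between lines were added after seeing the data. Promoter windows came from RefSeq, and the 5 members not matched there were NDRG1, BNIP3L, VEGFA, HIG2 and SLC2A3.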

Additional observations from a re-analysis of the deposited data

Results flagged for a closer look

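For 12 member and comparison pairs the effect of a treatment differed between the lines by an interaction test in limma, adjusted over all genes. With the inhibitor, Panc1 minus Capan1 was -3.69 for PFKFB4, -3.09 for NDRG1, -1.62 for ANKRD37, -1.38 for PFKFB3, -1.31 for ADM, -0.96 for SLC16A3 and -0.65 for EGLN1 on the log2 scale. These were 7 of 37 members tested, where 16.3% of all genes differed. The same test for the hairpins, added after seeing the data, was passed by 1 of 35 members for shIRAK1, 3 of 37 for shIRAK4 and 1 of 35 for shIRAK1+4, each a smaller share than that of all genes given here.

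SLC16A3, the lactate exporter, differed by 0.97 ± 0.22 for shIRAK1 (adjusted p = 0.0187), with effects of 0.58 in Panc1 and -0.39 in Capan1, where 4.56% of all genes differed. For shIRAK4, where 9.38% of all genes differed, SLC16A3 differed by 0.96 ± 0.22 (adjusted p = 0.0128), with effects of 0.34 in Panc1 and -0.63 in Capan1. SLC2A1 differed by 1.05 ± 0.28 (adjusted p = 0.0303), with 0.50 in Panc1 and -0.55 in Capan1. Without Panc1 shIRAK4 replicate 1, whose group has arrays that stand far apart in these genes, it was 0.61 (adjusted p = 0.0776), and the call was lost in 6 of 8 removals of single arrays and with no filter. The glucose importer and the lactate exporter were thus both higher in value in Panc1 and lower in Capan1. ADM differed by -1.21 ± 0.31 for shIRAK4 (adjusted p = 0.0248), with -0.20 in Panc1 and 1.01 in Capan1. BNIP3 differed by -1.38 ± 0.34 for shIRAK1+4 (adjusted p = 0.0184), where 10.4% of all genes differed, but it was not detected in the Capan1 groups compared, so its Capan1 effect of -0.01 is no measurement of a change. Under median scaling these 5 hairpin differences no longer passed (adjusted p = 0.0685 to 0.333), and none changed sign in the alternatives run. In 8 removals of single arrays SLC16A3 lost its call 5 times for shIRAK1 and 1 time for shIRAK4, ADM 5 times and BNIP3 4 times, and with the background from all rows ADM gave -0.53 (adjusted p = 0.103).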

How the results depend on the processing

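None of the 72 called fold changes changed sign under the alternatives run, but many calls were lost: 36 under median scaling, 25 with the background from all rows and 20 with no filter. With the background from all rows, HIF-only minus housekeeping was -0.15 for the Capan1 inhibitor, 0.42 for the inhibitor effect between lines, -0.040 for Capan1 shIRAK1+4, -0.0013 for Panc1 shIRAK1 and -0.15 for Panc1 scramble against DMSO, all opposite in sign to the values of 0.76, -0.47, 0.20, 0.35 and 0.11. It was 0.16 for Capan1 shIRAK4, -0.22 for Capan1 scramble against DMSO and 0.21 for Panc1 shIRAK1+4. The cause was not tested. Members called there numbered 2 for Capan1 shIRAK4, 0 for Capan1 shIRAK1+4, 1 for the Panc1 inhibitor, 3 for Panc1 shIRAK1 and 15 between the lines. Over all genes the calls there were 845 of 12111, 590 of 11793, 972 of 11525, 1184 of 11084 and 6744 of 12632. The deposited normalized table gave 0.99 for HIF-only minus housekeeping with the Capan1 inhibitor and -0.74 for its difference between lines. It gave 0 member calls for Capan1 shIRAK1+4, where 413 of 11790 genes were called.

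Median scaling gave 0 calls for Capan1 shIRAK4, Capan1 shIRAK1+4, Panc1 shIRAK1 and the inhibitor difference. Over all genes it called 489 of 12111, 1005 of 11793, 177 of 11084 and 317 of 13230 there. It gave 1 for Panc1 shIRAK1+4 and 14 between the lines, with 183 of 11522 and 3842 of 12632 over all genes. For scramble against DMSO it gave 3 in Panc1 and 11 in Capan1 (HIF-only minus housekeeping there -0.24), with 340 of 11412 and 4220 of 12136. No filter, which adds genes to the adjustment, gave 2 for Capan1 shIRAK4, 0 for Capan1 shIRAK1+4, 3 for Panc1 shIRAK1, 1 for Panc1 shIRAK1+4 and 4 for the inhibitor difference. Over all 34595 genes the fit with no filter called 674, 412, 866, 1248 and 1622, in the same order. A detection p for every row gave 0 for Capan1 shIRAK1+4, with 605 of 10663 over all genes. Weights per group gave 25 for the Capan1 inhibitor, 13 for the Panc1 inhibitor and 25 for their difference. Over all genes they called 6126 of 12079, 2675 of 11525 and 4794 of 13230 there. For the hairpins they gave 0 for Capan1 shIRAK1+4, 1 for Panc1 shIRAK4 and 12 for Panc1 shIRAK1+4. Over all genes these were 261 of 11793, 1248 of 11305 and 3704 of 11522. For scramble against DMSO they gave 9 in Capan1 and 15 in Panc1, with 3955 of 12136 and 5165 of 11412 over all genes. The spread of the compared groups alone gave 27 for the Capan1 inhibitor, 13 for the Panc1 inhibitor and 27 for their difference. Over all genes it called 5625 of 12079, 2311 of 11525 and 4617 of 13230 there. It gave 0 for Capan1 shIRAK4 and for Capan1 shIRAK1+4 and 17 for Panc1 shIRAK1+4. Over all genes these were 174 of 12111, 2 of 11793 and 3361 of 11522. For scramble against DMSO it gave 14 in Capan1 and 17 in Panc1, with 3466 of 12136 and 5033 of 11412 over all genes. The spread of the hairpin arm gave 0 for Capan1 shIRAK4, Capan1 shIRAK1+4 and Panc1 shIRAK1 and 1 for Panc1 shIRAK1+4. Over all genes it called 54 of 12111, 5 of 11793, 592 of 11084 and 1019 of 11522, in the same order.

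Same-numbered arrays deviated together only weakly (r from -0.04 to 0.23 over genes), and the labels tie no number to a batch. With the replicate block 1 member was called for the Panc1 inhibitor, against 0 without it, where 896 of 11525 genes were called. For the inhibitor difference 12 members were called, against 7, where 2373 of 13230 genes were called. The other 10 counts stayed within 1.5 times.

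With single arrays removed, counts ran from 2 to 3 for Capan1 scramble against DMSO, 0 to 7 for Capan1 shIRAK1+4, 0 to 5 for Capan1 shIRAK4, 2 to 5 for Panc1 shIRAK1, 1 to 1 for Panc1 shIRAK1+4, 0 to 9 for Panc1 shIRAK4 and 2 to 6 for the inhibitor difference. HIF-only minus housekeeping ran from 0.63 to 0.97 for the Capan1 inhibitor, -0.67 to -0.34 for its difference between lines and -0.12 to 0.25 for Panc1 shIRAK4, where uncalled members such as PFKFB4 and P4HA1 also lie on either side of scramble depending on the array. Signals near the detection limit (CA9, EGLN3, CA12, SLC2A3, HIF1A in Panc1) limit what can be measured of those genes.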

Other observations

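HKDC1, a hexokinase-related gene outside the 40, was the glycolysis gene with the largest changes in the Capan1 hairpin cells. It was higher than scramble by 1.56 ± 0.25 in shIRAK1, 1.40 ± 0.25 in shIRAK4 and 1.24 ± 0.25 in shIRAK1+4 cells (log2 ± SE; limma adjusted p = 0.00280, 0.00255 and 0.00908), 3 comparisons that share the scramble arrays. It was lower in scramble than in DMSO cells (-1.42) and lower with inhibitor than with DMSO (-1.43), and the inhibitor effect differed between Panc1 and Capan1 by 1.85 ± 0.36 (adjusted p = 0.00268).

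Under DMSO the lines also differed in other genes of both pathways. Over all genes 30.7% were called higher and 27% lower in Panc1 (57.7% in either direction). Of 26 other HIF pathway genes tested, 11 were higher in Panc1 and 5 lower, with STC2 at a log2 fold change of 4.24 and ANGPTL4 at 2.94, and IGFBP3 at -4.18 and INSIG2 at -2.29. Of 13 other glycolysis genes, 6 were higher and 3 lower, among them the lactate dehydrogenase subunit LDHB at 5.74, the gluconeogenic enzyme FBP1 at -3.31 and HKDC1 at -3.14. In Panc1 scramble against DMSO cells, 6 of 25 other HIF pathway genes were higher (AK4 by 1.50, CITED2 by 1.37 and FAM162A by 1.24 at the top) and 2 lower (STC2 -0.81 and HIF1AN -0.71), with 3 of 9 other glycolysis genes higher and 1 lower, where 12.8% of all genes were called higher and 14% lower. In Capan1 the counts were 3 and 0 of 23, and 1 and 1 of 11, where 7.99% and 7.63% of all genes were called.

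In the hairpin comparisons of Panc1 the other HIF pathway genes called higher and lower were 3 and 2 of 24 (shIRAK1), 3 and 2 of 25 (shIRAK4) and 2 and 3 of 25 (shIRAK1+4), and in Capan1 0 and 0 of 22, 1 and 2 of 24 and 2 and 0 of 24. Over all genes 10.9%, 13.7% and 14.7% were called in either direction in Panc1 and 1.63%, 8.36% and 5.73% in Capan1. BPGM, which makes 2,3-bisphosphoglycerate, was lower than scramble in all 3 Panc1 hairpin groups (-0.41, -0.36 and -0.37). The inhibitor effect differed between Panc1 and Capan1 in 5 of 26 other HIF pathway genes, where it did in 16.3% of all genes: STC2 by 1.32, BHLHE41 by -1.75, PPP1R3C by -1.50, ZNF395 by -1.34 and PLOD2 by -1.33.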
